A study of Mus musculus with 12 samples.

Results

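Gene expression was compared between 3 libraries of the Tet1 mutant called V and 3 wild-type libraries (WT), which are 6 of the 12 libraries of a study of TET1 in mouse germ cells. They were selected as the columns of the deposited count table whose names carry V or WT. Every library came from primordial germ cells, which give rise to the gametes, of female embryos at E14.5, counted in days of embryonic development. In every group the cells were sorted on an Oct4-GFP reporter, and RNA was taken from 5000 cells. V animals carried the genotype Tet1V/V, a form of the enzyme described as stalling at 5-hydroxymethylcytosine, and WT had no Tet1 mutation named. The other groups, also of 3 libraries, were Tet1HxD/HxD (HxD, catalytically dead) and Tet1-/- (KO). The sources used here do not say which residue is changed in V, which strain was used, how many embryos went into a library or whether the libraries of a group had separate embryos behind them. The p-values below therefore reflect only how far these libraries spread, and some of that spread may be technical.

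TET1 is a dioxygenase that oxidizes 5-methylcytosine in DNA to 5-hydroxymethylcytosine and then to formylcytosine and carboxylcytosine. The later products can be cut out by thymine DNA glycosylase and repaired to unmodified cytosine, whereas 5-hydroxymethylcytosine can be lost by dilution at replication. A stalling mutant can therefore separate the first oxidation from the later ones. In female germ cells around this age retinoic acid and BMP signals switch on Stra8 and Meiosin, meiotic genes are activated, and pluripotency genes are turned down. Many germline genes have CpG-containing promoters that are methylated in somatic cells, and TET1 is known for its part in activating them in female germ cells.

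The 6 libraries held 18471158 to 29495313 counts, and 14075 to 17334 genes had at least 1 count. CPM here are counts scaled to a common library size with edgeR's TMM factors. Of the 2933 genes that averaged between 1 and 5 CPM, 24.3% were at 0 in V2 and 2.05% in V3, against 13.2% to 20.6% in WT. The sorted identity was checked with 8 germ cell markers, which were all present and summed to 2903 to 3415 CPM in V and 3415 to 3855 CPM in WT. This sum joins opposite movements. Of the 8 log2 fold changes in V against WT 6 were positive, with a median of 0.63, and those of Dazl and Ddx4 were negative. Dazl and Pou5f1 are also among the genes called below, so the sum is no measure of germ cell content apart from the results. Of 12 pregranulosa markers, genes of the supporting cells of the ovary, the sum was 20.6 to 75.3 CPM in V and 31.3 to 77.0 CPM in WT, highest in V1 and WT1. Of 11 blood markers the sum was 0.996 to 17.4 CPM in V and 0.597 to 46.3 CPM in WT, again highest in V1 and WT1. Markers of stroma (10 genes) summed to 5.24 to 19.6 CPM in V and 3.19 to 6.53 CPM in WT, those of endothelium (9) to 159 to 260.4 CPM and 111 to 237 CPM, and those of mesonephric epithelium (7) to 31.2 to 42.4 CPM and 46.5 to 64.4 CPM. Over the 12 libraries Pecam1 held 55991 of the endothelial counts, Egfl7 2344, and Cdh5 and Kdr 55 and 61. Krt18 held 10706 of the mesonephric counts and Krt8 1102. Each of these sums thus rested mostly on its top gene. Foxl2, the defining gene of pregranulosa cells, had no count in WT or V2. WT3 is labelled female but held 227 counts of the Y-linked gene Eif2s3y and 49 of Ddx3y, with 1 of Uty and 0 of Kdm5d. The other 5 libraries held none of the 4 genes. Of 4 markers of Sertoli cells, the supporting cells of the testis, the sum was 25.3 to 33.4 CPM in V and 13.4 to 23.6 CPM in WT, without overlap. Aard held 7026 of these counts over the 12 libraries, and Amh, Dhh and Sox9 held 121, 18 and 6. Each library was also left out in turn, as given at the end, and the part of these differences in the results was otherwise not tested.

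In V against WT 25 of 16166 genes were called, 11 higher and 14 lower, which is 0.155% of the genes tested, 0.068% higher and 0.0866% lower (edgeR quasi-likelihood F test in 1 fit of the 12 libraries, Benjamini-Hochberg adjusted p under 0.05). Genes of meiosis and the germline made up most of the lower group: Mael, Sycp1, Dazl, Tuba3a, Taf7l, Stra8, Tex101, Tex15 and Brdt. The higher group was mixed and held Pou5f1, the gene behind the reporter, with Hmgn5, Socs2, Wsb2, Slc25a13, Ccng1, Vim, Txnrd1, Nmt1, Vdac1 and Was. For all 25 genes the 3 V libraries lay wholly above or wholly below the 3 WT libraries. That separation alone is common, since it was seen for 16.2% of the genes tested, 8.7% above and 7.48% below. RNA from bulk-sorted cells does not tell fewer cells with a transcript apart from less transcript per cell.

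Mael, a gene of the piRNA pathway that represses transposons, had the smallest p. WT libraries gave 211, 154 and 144 CPM and V libraries 30.8, 27.7 and 65.6 CPM (log2 fold change -2.03 ± 0.28 (SE), edgeR adjusted p = 7.55e-04). The lowest WT library was more than 2 times the highest V library. Dazl encodes the RNA-binding protein that licenses germ cells for meiosis, with 1923, 1666 and 1207 CPM in WT and 553, 744 and 759.7 CPM in V (log2 -1.22 ± 0.19, adjusted p = 0.00312). The V libraries of Dazl lay close together, and WT3 was the WT library nearest to them. Sycp1, the transverse filament of the synaptonemal complex that holds paired chromosomes together, was at 370.2, 192 and 167 CPM in WT and 38.5, 28.4 and 83.5 CPM in V (log2 -2.28 ± 0.35, adjusted p = 0.00214).

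Stra8, the retinoic acid-responsive switch for meiotic entry, was spread widely in WT, at 977, 423 and 247 CPM, and was at 45.8, 177 and 145 CPM in V. WT1 was more than 2 times WT2 and V1 was the lowest of the 6, so the groups did not overlap but each held a library far from its partners. The log2 fold change was -2.16 ± 0.43 (edgeR adjusted p = 0.0338), and without WT1 it was -1.45. Tex15, which acts in meiotic recombination and in transposon silencing, was at 269, 278 and 227 CPM in WT and 73.5, 152 and 155 CPM in V (log2 -1.02 ± 0.22, adjusted p = 0.0486). For Tex15 it was V1 alone that lay far below, and without it the log2 fold change was -0.75.

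Taf7l, a germ cell paralog of a general transcription factor subunit, was at 196, 84.1 and 45.3 CPM in WT and 6.51, 21.7 and 27.4 CPM in V (log2 -2.54 ± 0.49, edgeR adjusted p = 0.0335). Tex101 encodes a protein anchored on the surface of germ cells and was at 155, 60.4 and 40.1 CPM in WT and 7.47, 26.9 and 19.4 CPM in V (log2 -2.24 ± 0.47, adjusted p = 0.0467). Brdt, a testis-type bromodomain protein that reads acetylated histones, was at 80.3, 77.8 and 35.1 CPM in WT and 12.6, 24.1 and 21.2 CPM in V (log2 -1.74 ± 0.38, adjusted p = 0.0499). In each of these genes WT1 was the highest library and WT3 the lowest of WT, with V1 at the bottom. Without WT1 the log2 fold changes of Taf7l and Tex101 were -1.80 and -1.48. Tuba3a, an alpha tubulin expressed in germ cells, was at 357, 277 and 265 CPM in WT and 106, 116 and 170.5 CPM in V (log2 -1.20 ± 0.21, adjusted p = 0.00957). Its close copy Tuba3b was at 27.7, 30.9 and 40.9 CPM in WT and 13.9, 6.74 and 21.2 CPM in V and was not called (log2 -1.25, adjusted p = 0.223). The sources used here do not give how reads were divided between such copies.

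**Figure D1:**
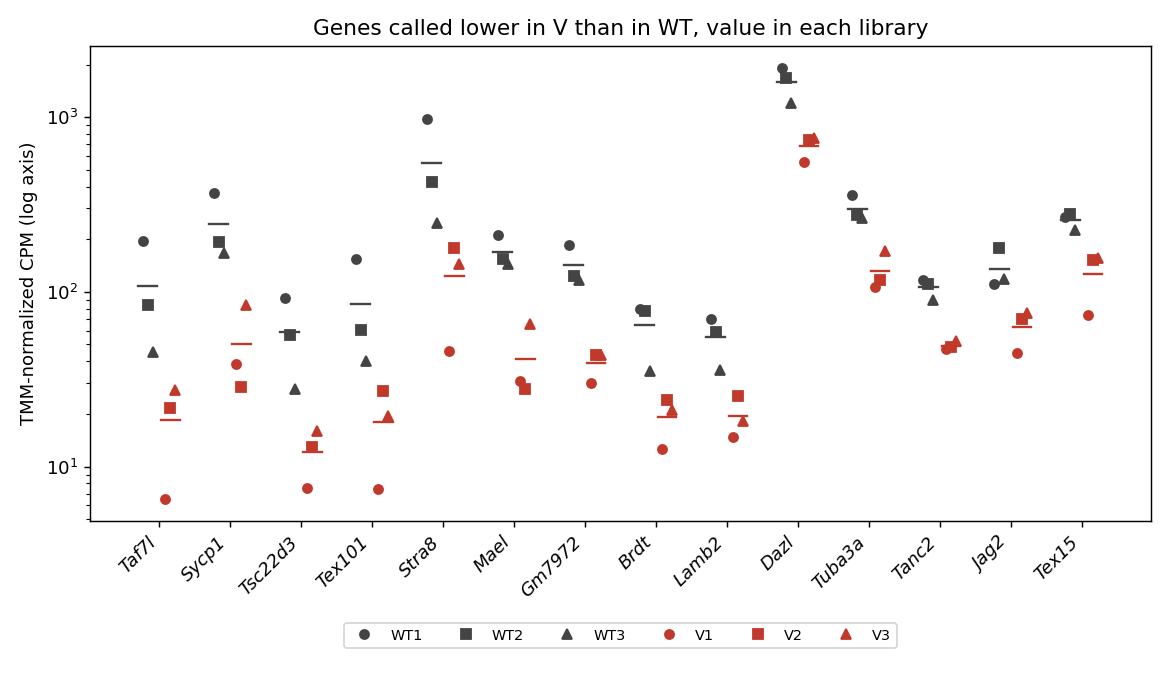
The 14 genes called lower in V, in TMM-normalized CPM on a log axis, with 1 symbol per library (circle, square and triangle for replicates 1, 2 and 3, grey for WT and red for V) and a line at each group mean. No V point reaches the lowest WT point of its gene, and WT1 is the highest WT library for 12 of the 14 genes.

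Promoter sequence is shown for 6 of the lower germline genes, since the cytosines that TET1 acts on lie mostly in CpG. The first 4 of them hold the E-box letters described after the sequences, and the other 2 do not. RefSeq's table of assembly GRCm38.p6 gave a promoter for 13 of the 14 lower genes and for 10 of the 11 higher ones. Each line holds the 250 bases before the transcript start, 5′ to 3′ on the gene's strand, with every CpG in capitals:

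Mael, chr1:166238745-166238994 (minus strand): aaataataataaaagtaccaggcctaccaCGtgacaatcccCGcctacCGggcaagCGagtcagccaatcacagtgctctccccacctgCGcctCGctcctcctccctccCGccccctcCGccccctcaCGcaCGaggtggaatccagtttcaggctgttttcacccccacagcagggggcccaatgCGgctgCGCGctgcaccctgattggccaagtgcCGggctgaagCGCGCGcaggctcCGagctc

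Sycp1, chr3:102936101-102936350 (minus strand): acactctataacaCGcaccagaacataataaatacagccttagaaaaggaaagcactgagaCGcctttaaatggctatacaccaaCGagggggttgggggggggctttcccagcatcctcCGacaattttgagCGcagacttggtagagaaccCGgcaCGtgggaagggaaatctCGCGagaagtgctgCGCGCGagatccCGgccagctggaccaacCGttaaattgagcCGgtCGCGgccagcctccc

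Taf7l, chrX:134476491-134476740 (minus strand): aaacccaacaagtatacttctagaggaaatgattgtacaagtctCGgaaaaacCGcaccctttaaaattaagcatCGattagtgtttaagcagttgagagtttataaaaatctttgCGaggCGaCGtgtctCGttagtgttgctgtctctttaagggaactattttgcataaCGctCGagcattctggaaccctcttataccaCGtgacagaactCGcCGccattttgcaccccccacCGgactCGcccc

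Brdt, chr5:107330944-107331193 (plus strand): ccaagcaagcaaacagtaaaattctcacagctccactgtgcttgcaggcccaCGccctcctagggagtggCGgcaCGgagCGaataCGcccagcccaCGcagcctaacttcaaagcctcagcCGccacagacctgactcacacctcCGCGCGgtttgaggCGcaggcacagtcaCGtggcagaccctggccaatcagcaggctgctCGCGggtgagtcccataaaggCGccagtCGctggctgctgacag

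Dazl, chr17:50293621-50293870 (minus strand): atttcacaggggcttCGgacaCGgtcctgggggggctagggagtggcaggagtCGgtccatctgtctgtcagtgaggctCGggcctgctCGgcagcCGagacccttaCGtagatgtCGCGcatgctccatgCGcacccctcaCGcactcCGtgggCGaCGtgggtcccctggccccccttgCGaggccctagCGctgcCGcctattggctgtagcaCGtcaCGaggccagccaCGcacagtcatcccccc

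Tex101, chr7:24672051-24672300 (minus strand): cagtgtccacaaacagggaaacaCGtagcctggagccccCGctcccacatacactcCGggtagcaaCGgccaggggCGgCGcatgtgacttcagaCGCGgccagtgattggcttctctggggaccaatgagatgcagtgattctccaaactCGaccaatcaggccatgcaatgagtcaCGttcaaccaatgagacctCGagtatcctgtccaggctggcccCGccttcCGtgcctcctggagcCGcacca

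These windows held 18 CpGs for Mael, 17 for Sycp1, 14 for Taf7l, 16 for Brdt, 20 for Dazl and 14 for Tex101. The median was 14 over the 15 promoters listed for the lower genes, 11 over the 14 promoters of the higher genes and 14 over all 15192 promoters of tested genes. The lower genes and all tested genes thus had the same median. Stra8 had 5 in its window. The 6 letters CACGTG, the E-box bound by MAX dimers such as MGA with MAX in the PRC1.6 repressor, read the same on both strands. They occurred in the windows of Mael, Sycp1, Taf7l and Brdt, 4 of 13 lower genes (30.8%), and of Slc25a13, 1 of 10 higher genes. Among 11860 tested genes with an entry 9.56% had them. The E2F-type letters GGCGGGA, searched on both strands, were in 15.4% of the lower, 10% of the higher and 19.7% of the tested genes. A match of letters is not a binding site, and binding or methylation was not measured here.

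The other lower genes belong to no germline list. Gm7972, a predicted protein-coding gene on chromosome 9 with no role to state, was at 186, 123 and 117 CPM in WT and 30.2, 43.5 and 43.4 CPM in V (log2 -1.86 ± 0.27, edgeR adjusted p = 0.00150). Tanc2, a scaffold protein of synapses, had V libraries within a narrow range, 46.95, 48.2 and 52.5 CPM, against 117, 111 and 90.3 CPM in WT (log2 -1.11 ± 0.22, adjusted p = 0.0335). Jag2, a ligand of Notch receptors, was at 110.3, 179 and 118 CPM in WT and 44.5, 69.7 and 75.5 CPM in V (log2 -1.10 ± 0.23, adjusted p = 0.0408). Here WT2, not WT1, was the highest library. Lamb2, a laminin chain of basement membranes, was at 69.9, 59.1 and 35.6 CPM in WT and 14.8, 25.4 and 18.2 CPM in V (log2 -1.49 ± 0.32, adjusted p = 0.0486). Tsc22d3, known as GILZ and induced by glucocorticoids, was at 91.9, 56.5 and 27.7 CPM in WT and 7.58, 12.95 and 16.01 CPM in V (log2 -2.27 ± 0.48, adjusted p = 0.0452), with the 3 WT libraries more than 3-fold apart. The V libraries of these last genes differed less among themselves in CPM than the WT libraries did.

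Among the higher genes, Pou5f1 encodes OCT4, the pluripotency factor whose reporter was used for the sort. It was at 318, 204 and 223 CPM in WT and 747, 387 and 504 CPM in V (log2 1.14 ± 0.23, edgeR adjusted p = 0.0397). V1 was the highest of the 6 libraries, and without it the log2 fold change was 0.85. Hmgn5, an X-linked protein that binds nucleosomes and loosens chromatin, was at 62.4, 39.9 and 57.4 CPM in WT and 213, 78.9 and 122 CPM in V (log2 1.37 ± 0.27, adjusted p = 0.0335). Without V1 its value was 0.91. Socs2, a feedback inhibitor of cytokine receptors, was at 46.1, 49.01 and 57.7 CPM in WT and 138, 72.3 and 118 CPM in V (log2 1.11 ± 0.22, adjusted p = 0.0335). Wsb2, which like Socs2 has a SOCS box, was at 55.3, 48.7 and 89.3 CPM in WT and 142, 152 and 115 CPM in V (log2 1.08 ± 0.21, adjusted p = 0.0335), with WT3 the nearest to V.

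Ccng1, cyclin G1 and a target of p53, had WT libraries close together at 45.4, 38.2 and 49.03 CPM and V libraries at 88.4, 83.9 and 105 CPM (log2 1.06 ± 0.21, edgeR adjusted p = 0.0335). Vim, the intermediate filament vimentin, was at 62.5, 94.7 and 95.04 CPM in WT and 186, 135 and 192 CPM in V (log2 1.02 ± 0.20, adjusted p = 0.0335). In both genes every V library was above every WT library by more than the spread within WT. A pair of mitochondrial transport genes was also higher. Slc25a13, the aspartate-glutamate carrier, was at 51.3, 76.7 and 71.9 CPM in WT and 172, 127 and 122 CPM in V (log2 1.07 ± 0.21, adjusted p = 0.0335). Vdac1, the outer membrane channel, was at 38.8, 66.2 and 70.8 CPM in WT and 136, 106 and 103 CPM in V (log2 0.97 ± 0.21, adjusted p = 0.0499), and WT1 was its lowest library.

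Txnrd1, the cytosolic thioredoxin reductase, was at 118, 159.5 and 200.2 CPM in WT and 310.4, 276 and 305 CPM in V (log2 0.90 ± 0.18, edgeR adjusted p = 0.0338). Nmt1, which attaches myristate to proteins, was at 60.8, 47.6 and 46.7 CPM in WT and 106, 104 and 94.6 CPM in V (log2 0.97 ± 0.20, adjusted p = 0.0408). The V libraries of Txnrd1 and Nmt1 were among the most alike of the called genes. Was, a gene of blood cells that regulates actin, had no count in any WT library and was at 2.75, 6.61 and 1.81 CPM in V, 4.44, 4.58 and 2.54 CPM in HxD and 2.94, 2.28 and 8.50 CPM in KO (adjusted p = 0.0499). Set against a floor of 3 counts in each WT library, its V mean was at least 30.7-fold higher, and without V2 at least 18.8-fold higher. The floor covers counting error only and not molecules lost before sequencing. By chromosome in RefSeq's table, 4 of the 25 called genes were on the X (Taf7l, Tsc22d3, Hmgn5 and Was), against 3.71% of the tested genes matched by symbol.

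**Figure D2:**
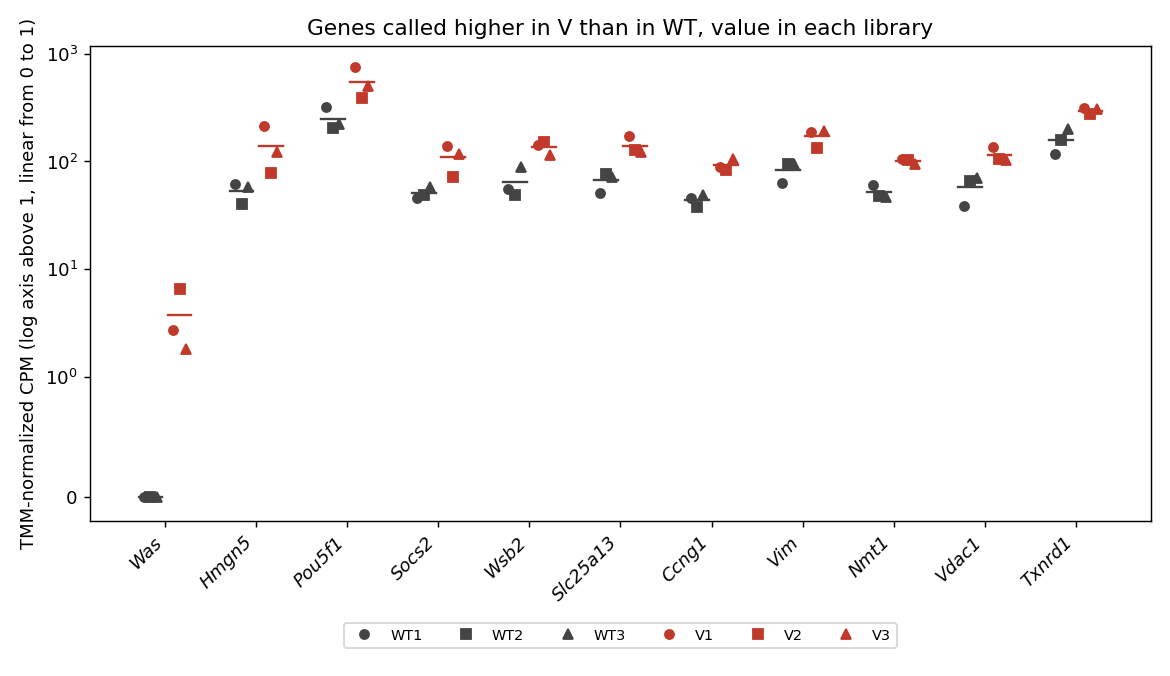
The 11 genes called higher in V, in TMM-normalized CPM on an axis that is logarithmic above 1 and linear from 0 to 1, with 1 symbol per library (grey for WT, red for V) and a line at each group mean. Was lies at 0 in the 3 WT libraries, and among the V libraries Was spreads widest, with V2 on top, followed by Hmgn5, with V1 on top.

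Lists of genes by role were then read across the whole fit. They were chosen with earlier results of these data known, so a list's direction is a description. Over all 16166 genes the median log2 fold change was 0. Of 12 tested regulators of meiotic entry, 2 were lower (Dazl and Stra8), none was higher, and the median was -0.68. Listed as Gm4969, Meiosin, the partner with which STRA8 activates meiotic genes, was at 91.5, 84.3 and 47.04 CPM in WT and 9.38, 25.5 and 27.2 CPM in V and was not called (log2 -1.84 ± 0.42, edgeR adjusted p = 0.0636). Meioc, which protects meiotic transcripts, was at 237, 137 and 136 CPM in WT and 15.5, 64.9 and 86.95 CPM in V (log2 -1.60 ± 0.39, adjusted p = 0.0780). The groups did not overlap for either gene. Its partner Ythdc2 and the RNA-binding Rbm46 had log2 fold changes of -0.09 and -0.44, and the BMP-induced factor Zglp1 one of -0.64, none called.

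Of 15 synaptonemal complex and chromosome axis genes tested, of 17 in the table, Sycp1 alone was called, although all 15 had negative values and 12 an unadjusted p under 0.05, a level reached by 9.69% of all genes tested (median -0.96). Smc1b, the meiotic SMC1 cohesin subunit, was at 1035, 692 and 643 CPM in WT and 326, 384 and 513 CPM in V (log2 -0.96 ± 0.21, edgeR adjusted p = 0.0577). Rec8, the meiotic kleisin, was at 534, 381 and 295 CPM in WT and 119, 221 and 219 CPM in V (log2 -1.11 ± 0.26, adjusted p = 0.0699). Stag3, their STAG partner, had a smaller difference with tight groups, 616, 649.9 and 628 CPM in WT against 441, 447 and 431 CPM in V (log2 -0.52 ± 0.17, adjusted p = 0.236). None of these passed the threshold, though in each the V libraries all lay below WT. Sycp2 and Sycp3, the axis proteins, had log2 differences of -1.87 ± 0.50 and -1.36 ± 0.44 (adjusted p = 0.120 and 0.234), and for Sycp3 the groups overlapped.

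Among the mitotic counterparts of these cohesins the signs were mixed. Rad21, the mitotic kleisin, was at 338, 564 and 600.3 CPM in WT and 709, 599 and 704 CPM in V (log2 0.42 ± 0.18, edgeR adjusted p = 0.463), with V2 inside the WT range. Smc1a was at 0.21 and Stag2 at -0.55. Cdca5 (sororin), which holds sister chromatids together, was at 66.1, 86.5 and 126 CPM in WT and 187, 161 and 138 CPM in V (log2 0.80 ± 0.21, adjusted p = 0.117). Nipbl, the cohesin loader, was at 259.9, 273 and 259 CPM in WT and 189.6, 179 and 187 CPM in V (log2 -0.51 ± 0.16, adjusted p = 0.230), with no overlap and little spread in either group. None of the 16 cohesin genes was called.

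Of 31 recombination genes, Tex15 was lower, none was higher, and 29 of the 31 had negative values, with a median of -0.48. Dmc1, the meiosis-specific recombinase, was at 156, 82.5 and 80.3 CPM in WT and 41.2, 49.8 and 57.5 CPM in V (log2 -1.10 ± 0.25, edgeR adjusted p = 0.0592). Tex11, an X-linked crossover factor, was at 88.9, 65.2 and 48.8 CPM in WT and 20.3, 25.9 and 35.5 CPM in V (log2 -1.31 ± 0.39, adjusted p = 0.180). Ccdc36 (IHO1), needed for break formation, was at 45.5, 26.5 and 14.98 CPM in WT and 3.20, 7.34 and 14.3 CPM in V, and its V3 value nearly met WT3 (log2 -1.80 ± 0.59, adjusted p = 0.244). Psmc3ip (HOP2), the helper of DMC1, went the other way, 35.2, 28.5 and 24.5 CPM in WT and 51.6, 39.3 and 46.8 CPM in V, and was not called (log2 0.64 ± 0.27, adjusted p = 0.443). Of 17 Fanconi anemia genes, which repair crosslinked DNA, none was called, none had an unadjusted p under 0.05 and the median was -0.05.

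The list of germline genes that depend on promoter methylation had 9 of 38 tested members lower and none higher, against 0.0866% lower among all genes. Its median was -0.99, and 24 members had all V libraries below WT, which 7.48% of all genes had. The list holds known responders of Tet1 mutants in these data, and it shares Mael, Sycp1, Dazl, Stra8, Tex15 and Tuba3a with other lists, so its count is not independent evidence. Of its uncalled members, Btbd18, a transcription factor of piRNA genes, was at 72.1, 44.8 and 50.9 CPM in WT and 8.65, 6.81 and 9.42 CPM in V (log2 -2.75 ± 0.61, edgeR adjusted p = 0.0577). Its log2 fold change was below that of each of the 14 genes called lower, and the groups lay far apart. Stk31, a tudor-domain kinase, was at 669.8, 483 and 457 CPM in WT and 234, 338 and 350.0 CPM in V (log2 -0.80 ± 0.22, adjusted p = 0.149). The germ cell helicase Ddx4 was at 714, 610.2 and 663 CPM in WT and 322, 399.6 and 544 CPM in V without a call (log2 -0.65 ± 0.20, adjusted p = 0.213).

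Mael was the 1 called member of 26 piRNA and transposon genes, whose median was -0.57. Gpat2, a mitochondrial factor of piRNA production, was at 252, 183 and 189 CPM in WT and 82.7, 134 and 122 CPM in V (log2 -0.88 ± 0.20, edgeR adjusted p = 0.0577). The tudor protein gene Tdrd1 and the helicase gene Mov10l1 had log2 fold changes of -1.32 ± 0.37 and -0.70 ± 0.20 (adjusted p = 0.151 and 0.155). In all 3 genes V1 was the lowest library. Of 17 germ cell RNA-binding genes Dazl alone was lower, none was higher and the median was -0.16. Morc1, an ATPase that silences transposons, stood on the other side, at 11.6, 16.1 and 24.7 CPM in WT and 53.4, 28.5 and 62.1 CPM in V (log2 1.46 ± 0.34, adjusted p = 0.0720). It was the only member of the piRNA and transposon list with all V libraries above WT, and it was not called.

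**Figure D3:**
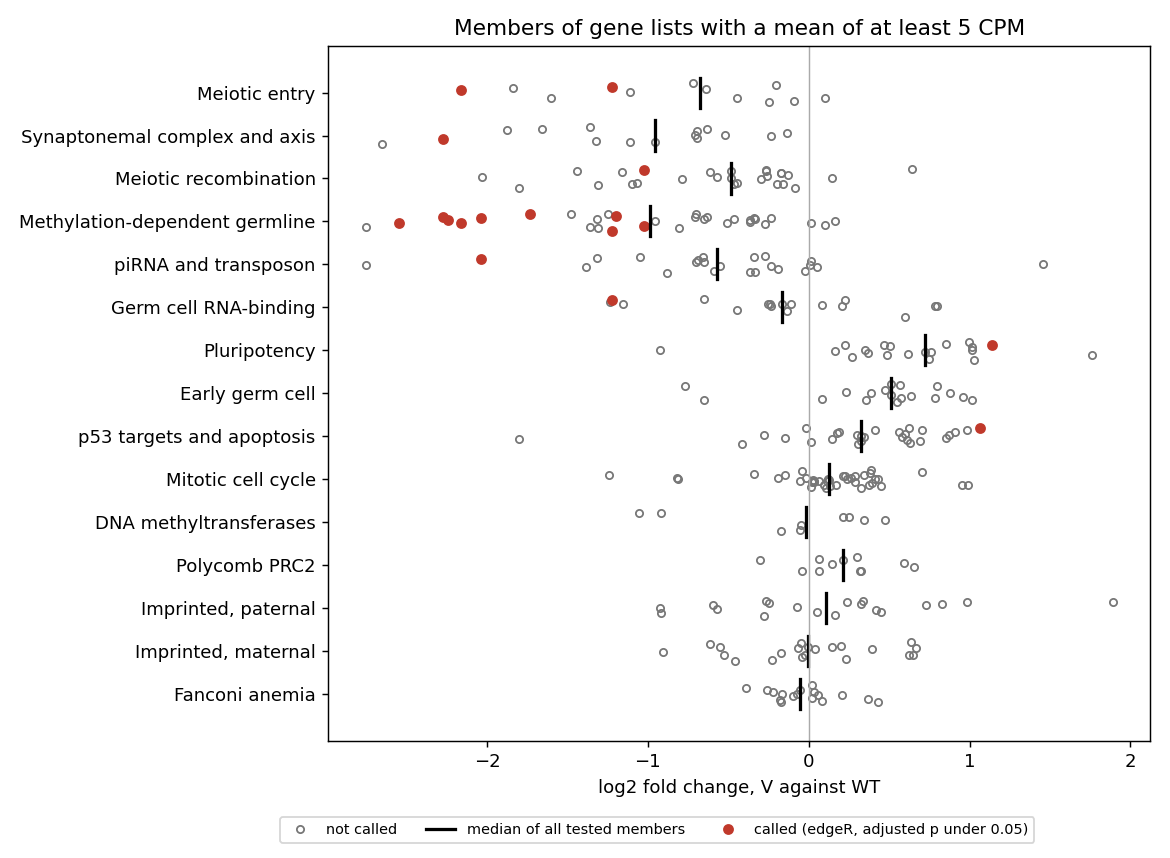
Log2 fold change of V against WT for members of 15 gene lists with a mean of at least 5 CPM (1 point per gene, red where called, open where not called) and the median of all tested members of each list as a black line. The lines of the 3 meiotic lists, the methylation-dependent germline list and the piRNA list lie left of 0, and those of the pluripotency, early germ cell and p53 lists lie right of it.

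Genes of pluripotency lay mostly on the higher side, with Pou5f1 called, 22 not called, 21 of 23 values positive and a median of 0.72. L1td1, an RNA-binding protein of pluripotent cells, came closest to a call, at 75.9, 89.3 and 155 CPM in WT and 243, 203 and 193 CPM in V (log2 0.997 ± 0.22, edgeR adjusted p = 0.0577). Esrrb, an orphan nuclear receptor, was at 58.95, 104 and 196 CPM in WT and 285, 237 and 202 CPM in V (log2 1.01 ± 0.26, adjusted p = 0.110). For Esrrb the 3 WT libraries spanned more than 3-fold and WT3 almost reached V3. Klf2, Sox2 and Dppa5a had log2 fold changes of 1.03, 0.72 and 0.75 with no overlap between groups and no call (adjusted p = 0.120, 0.143 and 0.120). Nanog was at 42.9, 63.2 and 95.4 CPM in WT and 157, 91.03 and 116 CPM in V, with WT3 above V2 (log2 0.85 ± 0.23, adjusted p = 0.143).

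None of the 19 early germ cell genes was called (median 0.51, 11 with an unadjusted p under 0.05). Tfap2c, a transcription factor of germ cell specification, was at 71.8, 146 and 215 CPM in WT and 343, 262 and 273 CPM in V (log2 1.02 ± 0.25, edgeR adjusted p = 0.0780). Dnd1, an RNA-binding protein needed for germ cell survival, was at 138, 124 and 204 CPM in WT and 282, 275 and 248 CPM in V (log2 0.79 ± 0.19, adjusted p = 0.0769), and for Prdm14, another specification factor, the log2 difference was 0.96 ± 0.25 (adjusted p = 0.112). In each the V libraries were all above WT. The X-linked homeobox genes Rhox5, Rhox6 and Rhox9 had values of 0.57 ± 0.17, 0.64 ± 0.17 and 0.58 ± 0.16, again with no overlap and no call (adjusted p = 0.213, 0.143 and 0.153), whereas Rhox1 was at -0.65 ± 0.30 (adjusted p = 0.483). Part of the Rhox family, such as Rhox2a to Rhox2h, has near-identical copies, so single values of those genes are uncertain. Of 19 tested Rhox genes none was called.

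In the p53 and apoptosis list Ccng1 was higher and 30 of 31 were not called, with a median of 0.32. Cdkn1a, the p53-induced inhibitor of cell division, was at 46.96, 48.5 and 49.99 CPM in WT, where the libraries were nearly equal, and at 102, 81.2 and 83.3 CPM in V (log2 0.87 ± 0.21, edgeR adjusted p = 0.0780). Trp53 itself was at 84.2, 88.2 and 183 CPM in WT and 259.6, 208 and 199 CPM in V (log2 0.91 ± 0.24, adjusted p = 0.120), and Bax, which triggers mitochondrial apoptosis, at 0.62 on the log2 scale (adjusted p = 0.231). In Trp53 WT3 lay near V and the other WT libraries far below. Mdm2, the p53 inhibitor and target, was at 0.32. None of 42 mitotic cell cycle genes was called (median 0.13). Cyclin D3 (Ccnd3), the nearest, was at 50.02, 98.7 and 112 CPM in WT and 142, 191 and 173 CPM in V (log2 0.96 ± 0.23, adjusted p = 0.0818). The kinase genes Aurkb and Cdk4 were at 0.99 and 0.70 on the log2 scale (adjusted p = 0.146 and 0.153).

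The enzymes of DNA demethylation and methylation showed no called gene among 21 and 10 tested. Tet1 transcripts were at 91.4, 180.1 and 215 CPM in WT and 226, 197 and 192 CPM in V, with WT1 low and the other WT libraries in or near the V range (log2 0.34 ± 0.24, edgeR adjusted p = 0.709). V is a form of the enzyme and not a deletion, so these counts give no check of the V labels. Tet2 was at 27.1, 36.96 and 42.9 CPM in WT and 37.7, 37.1 and 41.2 CPM in V (log2 0.12 ± 0.37, adjusted p = 0.981), and Tet3 was at 15.4, 18.7 and 13.2 CPM in WT and 6.80, 11.3 and 2.90 CPM in V, low in both groups (log2 -1.17 ± 0.63, adjusted p = 0.566). Tdg, the glycosylase that removes the later oxidation products, differed by 0.33 ± 0.41 on the log2 scale (adjusted p = 0.924). Ung, the uracil glycosylase, was at 0.66 ± 0.18 and Gadd45a, a DNA damage gene, at 0.98 ± 0.30, both without overlap and without a call (adjusted p = 0.126 and 0.213). Uhrf1, which guides the maintenance methyltransferase, was at 103, 113 and 78.2 CPM in WT and 44.7, 56.2 and 54.6 CPM in V (log2 -0.92 ± 0.23, adjusted p = 0.0841). All its V libraries were below WT. Dnmt1, that methyltransferase, was at 669.7, 824 and 836 CPM in WT and 689.7, 690.0 and 689.8 CPM in V (log2 -0.17 ± 0.16, adjusted p = 0.846).

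Of the repressive complexes no gene was called. Of 15 genes of PRC1.6, a Polycomb complex that holds germline genes silent, none was called (median 0.08), and its DNA-binding members E2f6, Mga and Max had log2 fold changes of 0.44 ± 0.33, -0.17 ± 0.19 and 0.39 ± 0.18. Of 11 PRC2 genes none was called (median 0.21). Eed, a core subunit, was at 83.1, 70.5 and 108 CPM in WT and 141, 126 and 145 CPM in V (log2 0.65 ± 0.19, edgeR adjusted p = 0.156), and Mtf2, an accessory subunit, at 0.59 (adjusted p = 0.231). Of 12 genes of H3K9 silencing none was called. The value farthest from 0 was that of Morc1, given above, and the chromatin remodeller Hells was at -0.41 (adjusted p = 0.430).

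Imprinted genes are expressed from 1 parental allele and their control regions lose methylation in germ cells. None of 28 paternally expressed and none of 29 maternally expressed genes tested was called, with medians of 0.11 and 0. Plagl1, a paternally expressed zinc finger gene, was at 58.3, 159 and 140.5 CPM in WT and 190.3, 241 and 202 CPM in V (log2 0.83 ± 0.24, edgeR adjusted p = 0.155). WT1 was far below its partners, which came closer to V. Phlda2, a maternally expressed growth repressor, was at 173, 236 and 273 CPM in WT and 359, 294 and 428 CPM in V (log2 0.67 ± 0.21, adjusted p = 0.226). The antisense transcript Kcnq1ot1 was at 61.97, 61.1 and 40.7 CPM in WT and 17.2, 30.6 and 38.7 CPM in V (log2 -0.92 ± 0.32, adjusted p = 0.292). Strand is not stated for the counting, so its reads and those of Kcnq1 cannot be told apart.

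Signals toward meiosis were not called either. None of 17 retinoic acid genes was called (median 0.08). Of 20 BMP genes none was called and none had an unadjusted p under 0.05. Their target Id3 was at 0.34 ± 0.18 on the log2 scale (edgeR adjusted p = 0.540). Of the oocyte list only 14 of 22 genes had counts enough to test and none was called. Sohlh2, a factor of early oocytes, was at 246, 286 and 258 CPM in WT and 168, 180.5 and 206 CPM in V with no overlap (log2 -0.51 ± 0.16, adjusted p = 0.238).

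The relatives of the other called genes gave few calls. Among 23 cytokine signalling genes, Socs2 and Wsb2 were higher and the median was -0.09. Wsb1, the paralog of Wsb2, was at 49.5, 56.1 and 56.9 CPM in WT and 73.9, 80.2 and 75.5 CPM in V (log2 0.50 ± 0.22, edgeR adjusted p = 0.470). Among 22 laminin, collagen IV and integrin genes, Lamb2 was lower and the median was -0.24. Col4a2, a basement membrane collagen, and Itga6, a laminin receptor, were at -1.43 ± 0.41 and -0.86 ± 0.26 with no overlap (adjusted p = 0.153 and 0.186). Among 10 HMG and linker histone genes Hmgn5 was higher, and its relative Hmgn1 was at 413, 379 and 450.4 CPM in WT and 556, 563 and 503 CPM in V (log2 0.38 ± 0.16, adjusted p = 0.445). Of 19 cytoskeleton genes Vim was higher and Tuba3a lower. Of 13 glucocorticoid response genes Tsc22d3 was lower and none was higher, with 8 values positive and a median of 0.21. The metallothionein genes Mt1 and Mt2, which glucocorticoids and metals induce, were at 1.34 ± 0.50 and 0.95 ± 0.31 with all V libraries above WT and no call (edgeR adjusted p = 0.344 and 0.241). The receptor gene Nr3c1 was at -0.66 ± 0.23 (adjusted p = 0.280), and the targets Fkbp5 and Per1 were at -0.10 and 0.17. Ribosomal protein genes (81 tested), nuclear genes of oxidative phosphorylation (93) and Zfp zinc finger genes (350) held no called member, with medians of 0.08, 0.11 and -0.11.

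V was also set directly against the other mutants in the same fit. No gene of 16166 was called in V against HxD or in V against KO (edgeR, 0% in both). At an unadjusted p under 0.05 there were 326 genes (2.02%) against HxD and 747 (4.62%) against KO, compared with 1567 (9.69%) in V against WT. The smallest adjusted p by edgeR was 1 against HxD and 0.0562 against KO. That gene, Dhrs7, which encodes a short-chain dehydrogenase/reductase, was at 31.96, 58.8 and 32.3 CPM in V, 0, 1.57 and 4.45 CPM in KO, 5.94, 21.2 and 17.6 CPM in WT and 22.6, 54.9 and 23.02 CPM in HxD, and KO lay below all other libraries. By DESeq2 16 and 19 genes were called, and by limma-voom none in either. A difference that was not called is not shown to be absent.

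The V-called genes are given in the other mutants side by side. These comparisons use the same WT libraries, so their likeness is not independent. Mael was at 30.8, 27.7 and 65.6 CPM in V, 40.2, 35.2 and 46.6 CPM in HxD and 17.7, 25.7 and 22.1 CPM in KO, and the direct difference of V was 0.03 ± 0.27 against HxD and 0.92 ± 0.27 against KO on the log2 scale. Tex101 was at 7.47, 26.9 and 19.4 CPM in V, 12.02, 20.5 and 10.8 CPM in HxD and 2.14, 5.30 and 7.22 CPM in KO, with direct differences of 0.32 ± 0.46 and 1.88 ± 0.48. Brdt differed by -0.08 ± 0.37 and 0.86 ± 0.37. The 3 KO libraries of Tex101 lay below every V and HxD library, whereas for Brdt KO1 lay above V1. For Stra8 the direct differences were -0.18 ± 0.42 and 0.74 ± 0.42, and for Dazl -0.14 ± 0.19 and -0.07 ± 0.19, the latter with all 9 mutant libraries between 553 and 900.5 CPM.

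Tanc2 was the called gene with the clearest separation from both other mutants by unadjusted p. It was at 46.95, 48.2 and 52.5 CPM in V, 69.6, 71.1 and 85.1 CPM in HxD and 53.4, 76.8 and 100.1 CPM in KO. The differences were -0.61 ± 0.22 and -0.64 ± 0.22 on the log2 scale, with adjusted p values of 1 and 0.945 (edgeR). Hmgn5 was at 213, 78.9 and 122 CPM in V and 62.6, 108 and 72.9 CPM in HxD, a difference of 0.77 ± 0.27. Lamb2 was at 14.8, 25.4 and 18.2 CPM in V and 40.8, 33.8 and 27.7 CPM in HxD, a difference of -0.81 ± 0.31. Tsc22d3 in V lay between the other mutants by group mean, -0.90 ± 0.46 against HxD and 1.04 ± 0.47 against KO. Its libraries overlapped, at 7.58, 12.95 and 16.01 CPM in V, 41.9, 17.4 and 9.14 CPM in HxD and 4.43, 7.66 and 5.68 CPM in KO. HxD3 was inside the V range, and KO2 was above V1. Of the 25 genes, 3 (Hmgn5, Tanc2 and Lamb2) had an unadjusted p under 0.05 against HxD, and 5 (Mael, Tanc2, Tsc22d3, Tex101 and Brdt) against KO. Over all genes tested the shares at this level were 2.02% and 4.62%. The 25 genes were picked by their V values against WT, and the direct contrasts use those V values again. Selection thus favours genes with V far out, and these counts are not independent evidence of a difference between mutants.

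**Figure D4:**
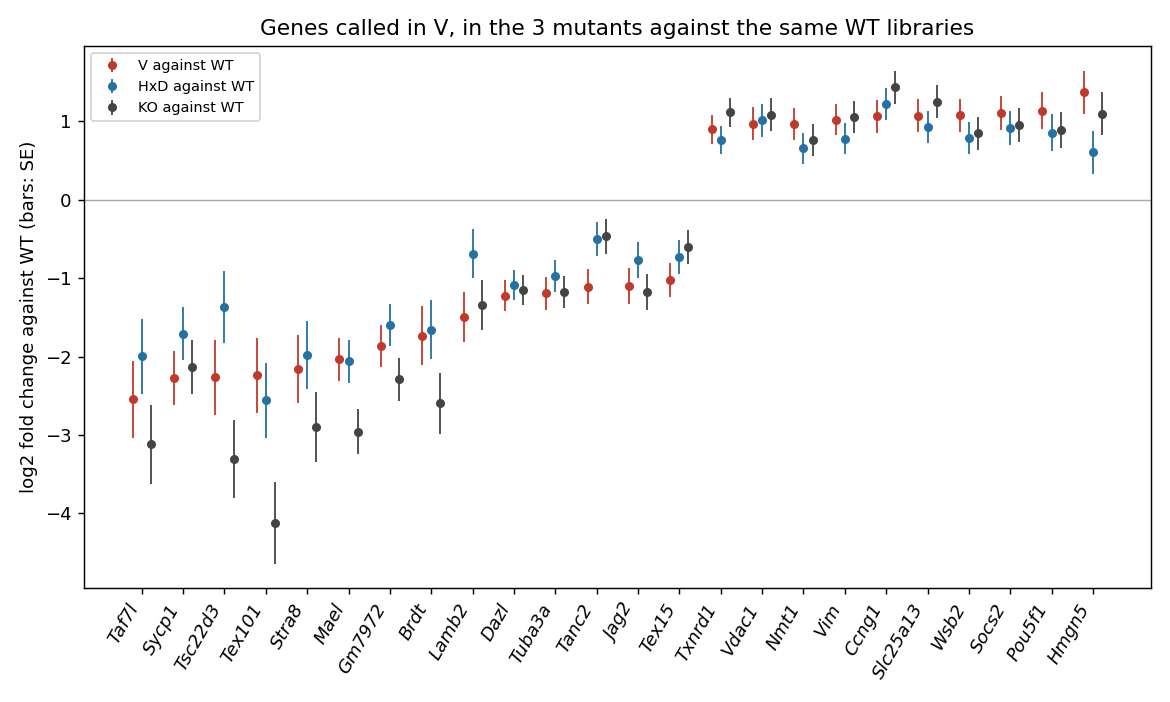
Log2 fold change against WT of 24 of the 25 genes called in V (Was, with no WT count, is left out), in V (red), HxD (blue) and KO (grey), with SE as bars. Values of the 3 mutants lie on the same side of 0 for each gene and share the WT libraries, and KO extends lowest for Tex101, Tsc22d3 and Taf7l.

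The calls rested on few libraries. Mael and Gm7972 kept their calls whichever of the 12 libraries was removed, and Sycp1, Dazl and Tuba3a lost their calls without V1 only (edgeR adjusted p up to 0.0505, 0.134 and 0.227). Without V1, 2 of the 25 genes remained called, without V2 16, without V3 9, without WT1 9, without WT2 5 and without WT3 22. Among all genes these fits called 2, 28, 14, 10, 5 and 110. Brdt, Vdac1 and Was each lost the call in 7, 9 and 10 of these 12 fits. By DESeq2 23 of the 25 remained called, with Stra8 and Pou5f1 lost (adjusted p = 0.0751 and 0.0712), and by limma-voom 12. At a mean of at least 5 CPM 5 remained: Mael, Gm7972, Sycp1, Dazl and Tuba3a. With V and WT alone in the fit 13 of the 25 remained, and 11 without HxD1, KO1 and KO3.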

How the data were processed

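The authors deposited 1 table of raw, unnormalized read counts per gene symbol for 12 libraries, with no further columns of values. The tools in the submitters' processing notes are STAR 2.7.10b, featureCounts 2.0.3, Trim Galore 0.6.7, FastQC and SAMtools 1.9. Those notes name GRCm39 and mm10 without a role. Annotation, strand setting and the handling of shared reads were not stated. Per the labels' protocols, poly(A) RNA was taken with oligo(dT) beads before NEB library preparation. No molecular identifiers are described, so floors of 3 counts cover counting error only.

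Of 35976 genes in the table, 22037 had a count and 16166 passed edgeR's default filterByExpr. In edgeR 4.0.16 (R 4.3.3), counts of the 12 libraries entered 1 model by group, with TMM scaling, two-sided quasi-likelihood F tests and Benjamini-Hochberg adjustment over the 16166 genes. SE was taken as the log2 fold change over the root of F. Alternatives were DESeq2 1.42.0, limma-voom (version 3.58.1 of limma), other filters, a replicate term and leaving out libraries. The procedure was tested on simulated counts. Groups, gene lists and named genes were chosen with earlier results of these data known. Named were all genes called in V against WT, the Tet genes, and list members with the smallest p or, from a mean of 5 CPM, with groups that do not overlap; others are named for their role or, as Dhrs7, after their values were seen. Replicates differed beyond sampling noise (chi-square per degree of freedom from 29.9 to 117), and each was counted once. Promoters came from RefSeq's GRCm38.p6 table, matched by symbol.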

Additional observations from a re-analysis of the deposited data

How the results depend on the processing

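Counts of called genes depended on the settings. In V against WT (25 called, 11 higher and 14 lower) the DESeq2 test called 149 (80 and 69), no low-count filter 176 (87 and 89), a mean of at least 5 CPM 5 (0 and 5), and DESeq2 size factors 32, with 22 lower. Limma-voom called 20. Only the V and WT libraries in the fit gave 20, with 2 higher and 13 of the 25 kept, and leaving out HxD1, KO1 and KO3 together, the libraries with the most genes of 1 to 5 CPM at 0, gave 16, with 2 higher and 11 of the 25 kept. Leaving out 1 library gave 2 (without V1) to 110 (without WT3), with 0 to 68 higher and 2 to 42 lower. V against HxD (0 called) gave 16 by DESeq2, 1 without the filter and 0 to 1 with 1 library left out. V against KO (0 called) gave 19 by DESeq2, 5 without the filter, 1 with only these groups and 0 to 3 with 1 library left out. The DESeq2 calls against HxD and KO, except Galnt11, had the very large log2 estimates given above.

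With the replicate number as a block, 73 genes were called in V against WT (36 higher, 37 lower), among them the 25, and 1 in V against KO. Whether the numbers pair the libraries is not known. Deviations of same-numbered V and WT libraries correlated at -0.11, 0.05 and -0.17, and in the other pairs of groups at -0.13 to 0.14. With 3 libraries per group, these values cannot decide it.

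No called gene changed sign in any of these settings. The V libraries of each lay wholly above or wholly below WT, so leaving out libraries could hardly reverse a sign. Unchanged signs are therefore no separate evidence on direction. Among list medians of lists with a called member, that of cytokine signalling (-0.09) was 0.0673 at a mean of at least 5 CPM and -0.12 to 0.0109 with 1 library left out, and that of the glucocorticoid list (0.21) was -0.0842 without WT1 and up to 0.34 without WT2. The cause was not tested. Depth was lowest in V1, without which most calls were lost. V1 was also the lowest V library for 12 of the 14 lower genes and the highest for 7 of the 11 higher genes. The part of either in the lost calls was not tested.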
